A study of Bos taurus with 8 samples.

Results

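The genes described here encode the subunits of 4 protein assemblies that make or turn over messenger RNA: Mediator, CCR4-NOT, RNA polymerase II and the PAF1 complex. They were chosen by name. Every bovine gene whose symbol is MED or CNOT followed by digits, or POLR2 followed by 1 letter, was taken, together with CDK8, CCNC, PAF1, LEO1, CTR9, CDC73 and RTF1. The RefSeq table of cattle genes held 57 of these, and 51 of them had a probe on the array that could be named through its accession, among 12603 genes named in all. These were 25 of 29 Mediator genes, 8 of 10 CCR4-NOT genes, all 13 RNA polymerase II genes and all 5 PAF1 complex genes. The totals are those of the naming rule, which may leave out subunits with other names. CDK8, MED13, MED16, MED24, CNOT3 and CNOT11 were not analysed here. All 51 genes were well above the array background on all 8 arrays.

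The samples were stem-like cells derived from bovine embryos (eSLCs) and bovine somatic cells (SCs), all of the HanWoo strain of Korean native cattle. The eSLCs grew out of blastocysts placed on inactivated murine STO feeder cells, and 2 lines came from each of 3 kinds of embryo. I2 (passage 35) and I9 (passage 30) came from in vitro produced embryos (IVP-eSLCs), N2 (passage 36) and N7 (passage 30) from somatic cell nuclear transfer embryos (NT-eSLCs), and P1 (passage 31) and P4 (passage 36) from parthenogenetic embryos (PA-eSLCs), which have no paternal genome. All eSLCs were kept in 3i medium, which holds N2 and B27 supplements, 0.8 μM PD184352, 2 μM SU5402 and 3 μM CHIR99021, inhibitors of MEK, FGF receptors and GSK3. SCs were grown in DMEM with 10% FBS and were measured at passage 5 (SC P5) and passage 10 (SC P10). Medium, feeder cells and passage number therefore differed between eSLCs and SCs together with the cell type and cannot be told apart from it. The labels do not say whether SC P5 and SC P10 came from separate cultures, so that the p-values below rest on a spread that may be technical on the SC side.

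Each sample was hybridized to an Agilent bovine array of its own. Signals are given after division by the 75th percentile of the array, which was set to 1000, and differences are on the log2 scale. They compare a gene with itself across arrays, since the brightness of a probe does not give the level of one gene against another. A gene was called when its difference was at least 2-fold and its adjusted p was under 0.05 (limma, Benjamini-Hochberg over the 10958 genes tested). Of 9 trophectoderm markers, 8 were called higher in eSLCs. The other, TFAP2A, differed by -0.86 ± 0.62 (SE, adjusted p = 0.299). The summed signal of the list was 413520 to 1163680 in eSLCs and 12231.9 to 12904.5 in SCs. Most of the SC sum was TFAP2A, at 9013 in SC P5 and 9771 in SC P10, while CDX2 and ELF5, 2 of the markers, were at the floor in SCs. Of 10 fibroblast markers, 9 were called lower in eSLCs, and their summed signal was 5493.57 to 10650.1 in eSLCs and 506977 to 607929 in SCs. Of the pluripotency markers only 2 were tested, POU5F1 and NANOG, and neither was called. POU5F1 stood at 898 in N7 and at 30.7 to 101 in the other eSLC lines, compared with 16.3 in SC P5 and 26.0 in SC P10. Every eSLC line was thus above both SC arrays, by 2.05 ± 1.07 (SE, adjusted p = 0.164). The study, by a 2-fold cut-off and PCR, reports both genes (POU5F1 as OCT4) as up-regulated in IVP-eSLCs. These cell type differences run with every comparison against SCs below, and their part in the members' differences was not tested. In these bulk samples, fewer cells of a type and less RNA per cell cannot be told apart.

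RNA polymerase II transcribes all protein-coding genes. Mediator is a large co-activator that carries signals from DNA-bound transcription factors and enhancers to the polymerase at promoters, and its detachable kinase module, formed by CDK8 or CDK19 with cyclin C, MED12 and MED13, regulates that contact. The PAF1 complex travels with the elongating polymerase and is needed for histone modification along transcribed genes, and CCR4-NOT shortens the poly(A) tails of messenger RNAs and so starts their decay. Subunits of Mediator, CCR4-NOT and the PAF1 complex have been found in screens for genes that embryonic stem cells need to keep their identity.

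Primers for 1 of these genes are printed here because CNOT1, the scaffold of CCR4-NOT, was the member that the study also amplified by PCR, and its array values open the section on that complex. Each primer is 20 bases long and is written 5′ to 3′ as designed by the study. No PCR values are used.
CNOT1 forward: ttggacagatgcaccagcaa
CNOT1 reverse: agtcggacaaaggcatccag

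Most of the 51 genes were somewhat higher in eSLCs than in SCs, and few were much higher. The difference was positive for 44 genes and negative for 7, and it was positive for 59.8% of all genes tested. The median difference was 0.51, against 0.23 over all genes tested, and the values ran from -1.46 for MED11 to 1.74 for MED10. Of the 51 genes, 40 lay within 2-fold of SCs, as did 6575 of all 10958 genes. The SD of the differences was 0.65 among the members and 2.19 among all genes. The 2 sets differ in detection: all members were well above background on every array, whereas a gene tested needed this in some condition only. What part detection has in the narrower spread was not tested.

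**Figure D1:**
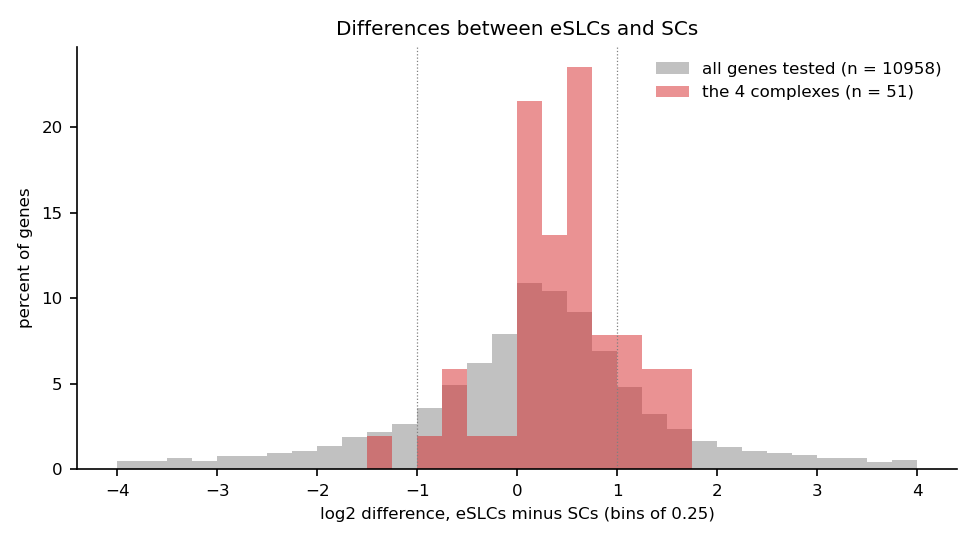
Percent of genes (vertical axis) by log2 difference between eSLCs and SCs in bins of 0.25 (horizontal axis), for all 10958 genes tested (grey) and the 51 members (red), with dotted lines at 2-fold. The members lie between -1.46 and 1.74 and mostly just above 0, while 411 of all genes lie below -4 and 475 above 4, outside the range drawn.

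By the 2-fold and adjusted p rule, 10 members were called higher in eSLCs, namely MED10, MED21, CCNC, CNOT1, POLR2A, MED22, MED30, LEO1, CDC73 and POLR2H. That is 10 of 51, and 19.7% of all genes tested were called higher, so the share was near the background. Only MED11 was called lower, 1 of 51, where 15.7% of all genes were. At an adjusted p under 0.05 with no limit on size, 18 members were higher and 3 were lower (MED11, MED12 and MED27), beside 27.5% and 19.6% of all genes. All 6 eSLC arrays lay above both SC arrays for 28 members and below both for 4 (MED11, MED12, MED14 and MED27), beside 34% and 23.6% of all genes. For the other 19 members the arrays of the groups overlapped. The SC arrays weigh on the count: without SC P5 the number called higher was 3, and without SC P10 it was 6. The number called lower was 0 without I9, P1, P4 or SC P10. From the authors' processed values in place of the scanner's background-subtracted signal, 1 member was called higher and 1 lower.

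**Figure D2:**
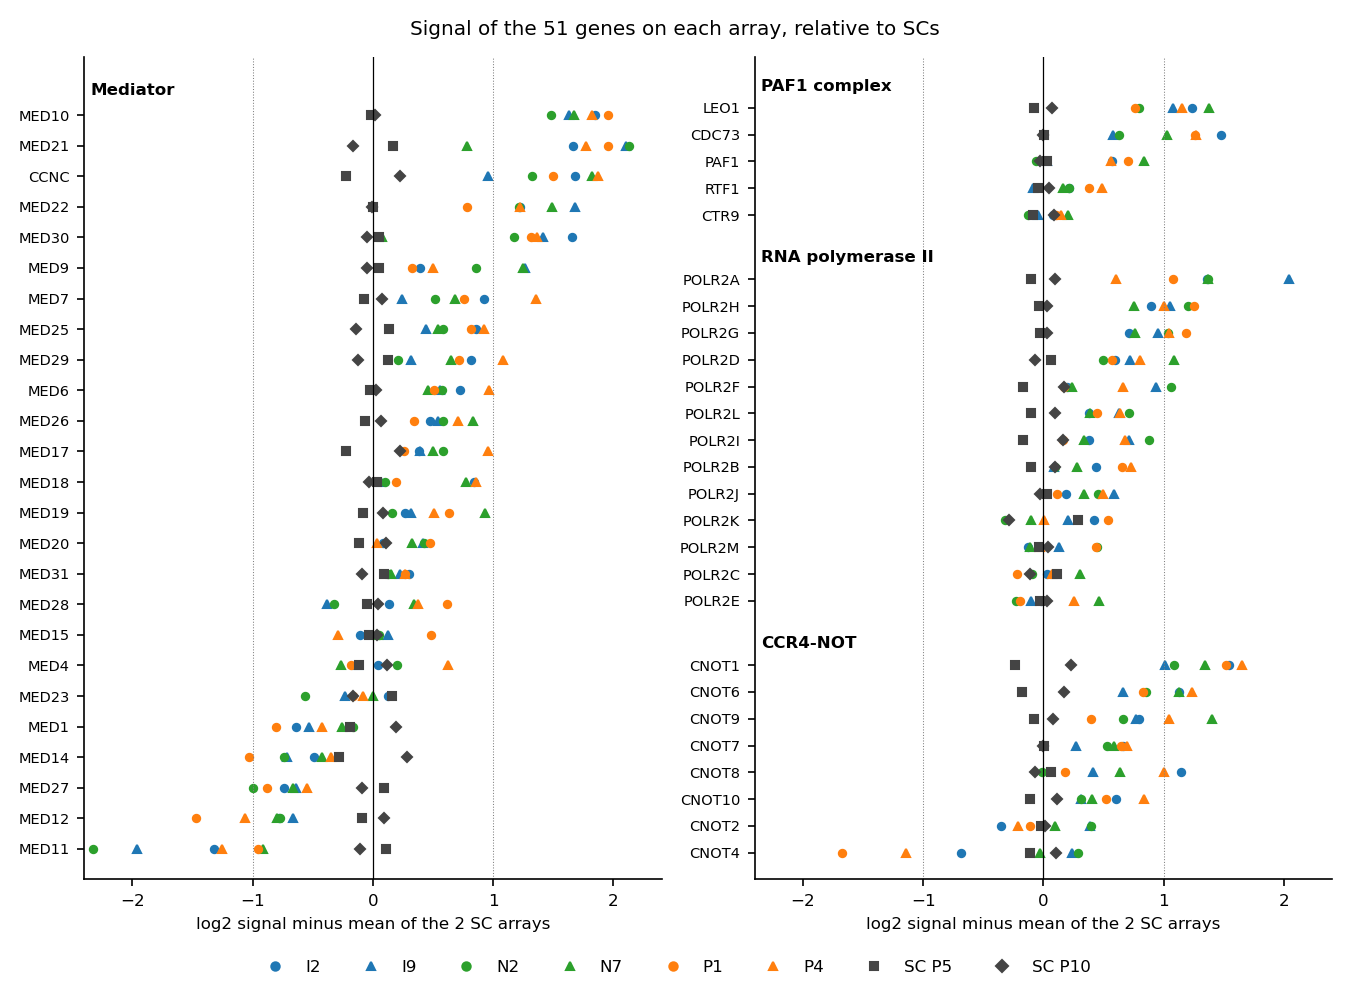
Log2 signal of each of the 51 genes on each array minus the mean of the 2 SC arrays (horizontal axis), with 1 line of points per gene, grouped by complex and ordered by difference, and dotted lines at 2-fold. Colours give the embryo origin or SCs and marker shapes the line. The points of MED10 lie furthest to the right as a group, those of MED11 furthest to the left, and CNOT4 has the widest spread among eSLC lines.

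Mediator held both the largest rise and the only call in the other direction. Of its 25 genes, 5 were called higher (MED10, MED21, CCNC, MED22 and MED30) and 1 lower (MED11), beside 19.7% and 15.7% of all genes. The median difference was 0.47, and 19 values were positive, beside 59.8% of all genes. All eSLC arrays lay above both SC arrays for 15 of them and below both for 4, beside 34% and 23.6% of all genes.

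MED10 belongs to the middle module of Mediator, which lies between the head, at the polymerase, and the tail, at activators. Its signal was 8723 in I2, 7493 in I9, 6767 in N2, 7727 in N7, 9402 in P1 and 8534 in P4, and it was 2389 in SC P5 and 2453 in SC P10. Every eSLC line was thus well above the SC arrays, and the lines stayed close together, with an SD of 0.17. The difference was 1.74 ± 0.15 (SE, adjusted p = 0.000392), or 3.33-fold. All 3 of its probes gave nearly the same value, 1.72 to 1.85, and both slides did too, 1.74 on slide 1 and 1.73 on slide 2.

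MED21, another middle module subunit, had signals of 8713 in I2, 11793 in I9, 11972 in N2, 4710 in N7, 10634 in P1 and 9379 in P4, compared with 3083 in SC P5 and 2441 in SC P10. N7 stood apart from the other lines but was still above the SC arrays. The difference was 1.73 ± 0.37 (SE, adjusted p = 0.0116), with 1.35 within slide 1 and 2.12 within slide 2. Its adjusted p was 0.0803 without SC P5 and 0.114 without SC P10. Of 7 middle module genes (MED1, MED4, MED7, MED9, MED10, MED21 and MED31), 6 had positive differences and 2 were called higher, beside 59.8% and 19.7% of all genes. MED1 was negative, though its 4 probes ran from -0.49 to 0.19.

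The kinase module was measured through CCNC and MED12 alone, and these differed from SCs in opposite directions. CCNC, which encodes cyclin C, the partner of the kinases CDK8 and CDK19, had signals of 5967 in I2, 3613 in I9, 4659 in N2, 6571 in N7, 5268 in P1 and 6800 in P4, and of 1596 in SC P5 and 2174 in SC P10. The groups did not overlap, and I9 was the lowest of the eSLC lines. The difference was 1.52 ± 0.28 (SE, adjusted p = 0.00674), and without SC P5 the adjusted p was 0.0801. MED12, which activates the kinase, was described after its values were seen. Its signal was 1386 in I2, 1502 in I9, 1395 in N2, 1376 in N7, 862 in P1 and 1139 in P4, and 2236 in SC P5 and 2545 in SC P10. It was lower in every eSLC line, most of all in P1. The difference was -0.93 ± 0.17 (SE, adjusted p = 0.00671), short of 2-fold, with -0.66 within slide 1, -1.20 within slide 2 and -1.02 without SC P5. Of its 8 probes only this one and a dimmer one, which gave 0.13, were well above background on all arrays, and of those well above it on 6 arrays 1 gave 1.77 and 1 gave -0.65, so the probes of MED12 disagree in direction.

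Paralogs that can take the place of kinase module subunits do not fall under the naming rule. CDK19, the other kinase of the module, was at 62.4 in SC P5 and 89.4 in SC P10 and between the floor of 13.3 and 15.4 in the eSLC lines. It was called lower in limma's fit (adjusted p = 0.000264), and since I2, N7 and P1 stood at the floor and 2 of the 6 eSLC arrays were not well above background, its difference of -2.41 is only a bound, and the true one may lie further below 0. MED13L was called higher by 1.41 ± 0.41 (SE, adjusted p = 0.0322), with 326 to 1255 in eSLCs and 215 to 245 in SCs. MED12L was at 35.8 to 63.3 in eSLCs and 24.0 to 30.2 in SCs, a difference of 0.85 ± 0.22 (SE, adjusted p = 0.0222) that stayed under 2-fold.

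MED22 and MED11 are partner subunits of the head module, the part of Mediator that touches the polymerase, and they too moved in opposite directions. MED22 gave 2982 in I2, 4100 in I9, 2971 in N2, 3594 in N7, 2204 in P1 and 2987 in P4, compared with 1283 in SC P5 and 1276 in SC P10. All eSLC lines were above the SC arrays, with P1 the lowest. The difference was 1.27 ± 0.21 (SE, adjusted p = 0.00451). The mean of its 3 probes, 1 of which was well above background on only 6 arrays, gave a difference of 0.92, which is under 2-fold.

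MED11 gave 1731 in I2, 1110 in I9, 861 in N2, 2303 in N7, 2237 in P1 and 1814 in P4, compared with 4671 in SC P5 and 4018 in SC P10. Each eSLC line was below both SC arrays, N2 furthest. The difference was -1.46 ± 0.40 (SE, adjusted p = 0.0279), from a single probe. This call was close to the threshold, since the adjusted p was 0.0615 without I9, 0.0613 without P1, 0.0817 without P4, 0.188 without SC P5 and 0.139 without SC P10. The other 4 head genes, MED6, MED17, MED18 and MED20, had positive differences by the brightest probe, of which only that of MED6 passed the adjusted p, at 0.63 ± 0.18 (SE, adjusted p = 0.0297). For MED18 the brightest probe gave 0.47, and a dimmer one, also well above background on all arrays, gave 1.07.

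MED30 is a subunit found in animal Mediator. It was at 3435 in I2, 2908 in I9, 2464 in N2, 1150 in N7, 2718 in P1 and 2804 in P4, and at 1131 in SC P5 and 1052 in SC P10. N7 lay only just above the SC arrays, and the other eSLC lines were far above them. The difference was 1.17 ± 0.30 (SE, adjusted p = 0.0218). The call was lost when any one of 6 arrays was left out. The adjusted p became 0.0575 without I2, 0.0537 without P1, 0.0619 without P4, 0.124 without SC P5 and 0.142 without SC P10, and without N2 the difference was 0.98.

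MED27 stood among the lower members. Its signal was 6834 in I2, 7322 in I9, 5729 in N2, 7199 in N7, 6220 in P1 and 7836 in P4, and 12158 in SC P5 and 10754 in SC P10. All eSLC lines were below both SC arrays and close to each other, with an SD of 0.17. The difference was -0.75 ± 0.18 (SE, adjusted p = 0.0175), short of 2-fold. MED14, the backbone that joins the modules, was also below both SC arrays in every line, at 753 to 1211 against 1266 and 1880, but its difference of -0.62 ± 0.27 (SE) did not pass the adjusted p, which was 0.101. Among the Mediator genes not yet named with values, MED25, a target of activators, and MED26, which recruits elongation factors, were higher by 0.69 ± 0.18 (SE, adjusted p = 0.0223) and 0.58 ± 0.17 (SE, adjusted p = 0.0356).

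**Figure D3:**
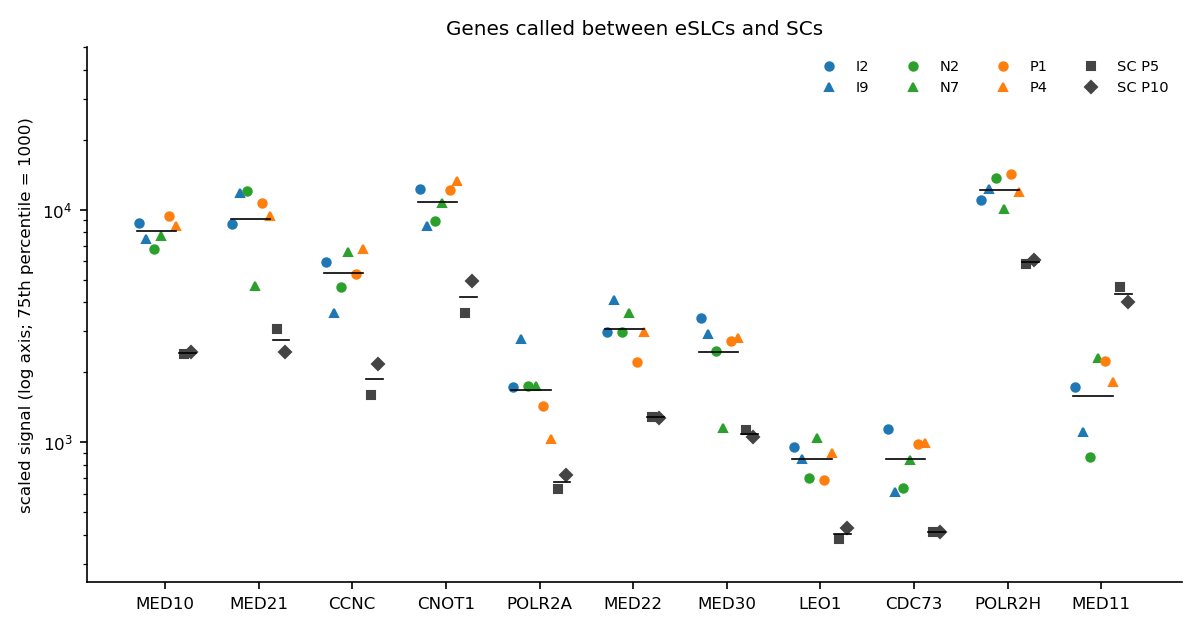
Scaled signal (log axis, 75th percentile of each array set to 1000) of the 11 genes called between eSLCs and SCs, 1 point per array, with short lines at the mean of the log2 values of each group. The first 10 genes lie higher in every eSLC line than in both SC arrays, though N7 barely so for MED30, and MED11, at the right, lies lower.

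In CCR4-NOT, CNOT1 was the only gene of 8 that was called, beside 19.7% of all genes called higher and 15.7% lower. The median difference of the 8 genes was 0.56. CNOT1, the scaffold on which the other subunits assemble, was at 12319 in I2, 8484 in I9, 8968 in N2, 10700 in N7, 12113 in P1 and 13239 in P4, and at 3589 in SC P5 and 4958 in SC P10. The lowest eSLC line, I9, was well above the higher SC array. The difference was 1.36 ± 0.22 (SE, adjusted p = 0.00444), or 2.57-fold, and the call held whichever of the 8 arrays was left out. Its 4 probes ran from 0.52 to 1.46, all in the same direction.

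The deadenylases, which remove the poly(A) tail, were measured through CNOT6, CNOT7 and CNOT8, and all 3 differences were positive and under 2-fold. CNOT6 was at 732 in I2, 530 in I9, 605 in N2, 732 in N7, 595 in P1 and 790 in P4, compared with 297 in SC P5 and 379 in SC P10. The groups did not overlap, and the difference of 0.97 ± 0.22 (SE, adjusted p = 0.0152) lay just below 2-fold. It was past 2-fold, and was then called, as the mean of its 2 probes (1.17) and without I9 (1.05), N2 (1.02) or P1 (1.04).

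CNOT7 was at 6939 in I2, 5292 in I9, 6314 in N2, 6564 in N7, 6834 in P1 and 7076 in P4, and at 4399 in SC P5 and 4359 in SC P10. It was higher in every line, by 0.56 ± 0.16 (SE, adjusted p = 0.0320). CNOT8 was at 2887 in I2, 1736 in I9, 1295 in N2, 2024 in N7, 1479 in P1 and 2616 in P4, compared with 1365 in SC P5 and 1244 in SC P10. N2 fell between the SC arrays, so the groups overlapped, and the difference of 0.56 ± 0.33 (SE, adjusted p = 0.209) did not pass the test. CNOT6L, a paralog of CNOT6 outside the naming rule, was at 131 to 268 in eSLCs and 106 to 154 in SCs, with a difference of 0.57 ± 0.32 (SE, adjusted p = 0.193).

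Of the other 4 CCR4-NOT genes, only CNOT9 passed the adjusted p, at 0.85 ± 0.27 (SE, adjusted p = 0.0448), but its other 2 probes gave differences of the other sign, -0.62 and -0.51. CNOT4, a ubiquitin ligase that associates with the complex, was the dimmest member and the most variable one. It was at 26.4 in I2, 49.96 in I9, 51.7 in N2, 41.8 in N7, the floor of 13.3 in P1 and 19.3 in P4, compared with 39.4 in SC P5 and 45.7 in SC P10. The PA lines were the lowest and the other lines lay on either side of the SC arrays.

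By the brightest probe, all 13 RNA polymerase II genes had positive differences, from 0.03 to 1.30 with a median of 0.52, beside 59.8% of all genes. Other probes of POLR2C (-0.17 and -0.19) and POLR2E (-0.05) gave the other sign. Of the 13 genes, 2 were called higher, beside 19.7% of all genes. POLR2A encodes the largest subunit, which holds the catalytic centre together with the POLR2B product. It was at 1735 in I2, 2786 in I9, 1752 in N2, 1748 in N7, 1427 in P1 and 1029 in P4, and at 631 in SC P5 and 725 in SC P10. All lines were above the SC arrays, I9 the most and P4 the least. The difference was 1.30 ± 0.24 (SE, adjusted p = 0.00680), with 1.69 within slide 1 and 0.92 within slide 2, and without SC P5 the adjusted p was 0.0727. The 3 of its 4 probes that were well above background on all arrays gave 1.30 to 1.62, and the other, dim on 1 array, gave 0.72. POLR2B, by contrast, showed 0.38 ± 0.17 (SE, adjusted p = 0.112) by its brightest probe, and its 4 probes ran from 0.38 to 1.49.

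The subunits POLR2E, POLR2F, POLR2H, POLR2K and POLR2L are shared by all nuclear RNA polymerases, and POLR2H was the one called. POLR2H was at 11050 in I2, 12320 in I9, 13660 in N2, 10044 in N7, 14205 in P1 and 11957 in P4, and at 5815 in SC P5 and 6093 in SC P10. The lines lay close together, all above SCs. The difference of 1.03 ± 0.18 (SE, adjusted p = 0.00590) was just past 2-fold, and both probes gave it (1.03 and 1.04). It was just under 2-fold without I9, N2, P1 or SC P5, where it was 1.00, 0.95, 0.98 and 0.99, and with median scaling (0.98) or quantile normalization (0.85). The other 4 shared subunits had differences from 0.03 for POLR2E to 0.54 for POLR2F, and none of these passed the adjusted p.

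Among the subunits of RNA polymerase II alone, POLR2G and POLR2D passed the adjusted p below 2-fold. POLR2G, whose product forms with that of POLR2D a stalk on the polymerase, was described after its values were seen. It was at 22163 in I2, 26100 in I9, 27609 in N2, 22898 in N7, 30708 in P1 and 27869 in P4, and at 13218 in SC P5 and 13788 in SC P10. Every line was above both SC arrays, and the difference was 0.95 ± 0.16 (SE, adjusted p = 0.00489). POLR2D differed by 0.71 ± 0.20 (SE, adjusted p = 0.0320), also without overlap. By the brightest probe, POLR2C, the shared subunits POLR2E and POLR2K, and POLR2M, which associates with the polymerase, stayed within 0.13 of SCs. Another probe of POLR2K gave 0.33.

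In the PAF1 complex, LEO1 and CDC73 were called higher and the other 3 genes were not, which is 2 of 5 beside 19.7% of all genes. LEO1, a subunit that binds histones and RNA, was at 952 in I2, 852 in I9, 703 in N2, 1048 in N7, 686 in P1 and 899 in P4, and at 384 in SC P5 and 426 in SC P10. The groups did not overlap, and the difference was 1.07 ± 0.22 (SE, adjusted p = 0.00970). Without SC P5 or SC P10 the adjusted p was 0.0825 or 0.0581, and without N7 the difference was 0.97.

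CDC73, known as parafibromin and as a tumor suppressor of the parathyroid, was at 1143 in I2, 613 in I9, 636 in N2, 836 in N7, 984 in P1 and 993 in P4, compared with 412 in SC P5 and 410 in SC P10. All lines were above SCs, I9 and N2 the least. The difference was 1.04 ± 0.27 (SE, adjusted p = 0.0222). It was under 2-fold without I2 (0.89) or N7 (0.97) and with median scaling (0.99) or normexp (0.97), and the adjusted p was 0.0534 without P1, 0.0592 without P4, 0.131 without SC P5 and 0.128 without SC P10. PAF1, RTF1 and CTR9, the last a repeat protein that holds the complex together, differed by 0.44 ± 0.28, 0.23 ± 0.15 and 0.06 ± 0.16 (SE), and none passed the adjusted p.

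The study lists 8 of the members among its stem cell maintenance genes: MED10, MED21, MED27, MED30, CNOT1, CDC73, LEO1 and POLR2A. Of these, 7 were called higher over all eSLCs, and MED27 was lower at an adjusted p under 0.05 without reaching 2-fold. The study compared these genes in IVP-eSLCs against SCs only. In limma's fit of that comparison CDC73 was not called (1.03, adjusted p = 0.0527), and MED27 did not pass the adjusted p (-0.69, adjusted p = 0.0516). Since the study drew up that list from the same arrays, it is not independent evidence of the direction.

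Set against SCs separately by origin, the members gave like counts, and the 3 comparisons share the SC arrays. In IVP-eSLCs 8 members were called higher and 1 lower, where 17.7% and 14.6% of all genes were. In NT-eSLCs 6 were called higher and 1 lower, beside 15.8% and 13.9% of all genes. In PA-eSLCs 11 were called higher and 2 lower, beside 20.4% and 14.9% of all genes. CCNC, CNOT1, MED10 and MED22 were called in all 3 comparisons, and 16 members in at least 1.

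These counts depended on single arrays. Without SC P5 the numbers called higher were 1 for IVP, 1 for NT and 4 for PA, and without SC P10 they were 3, 2 and 5. The IVP count was 4 without I2 and 5 without P4, and the PA count was 5 without P1 and 4 without P4. The gene called lower in IVP-eSLCs was lost without any 1 of I2, I9, P1, P4, SC P5 and SC P10, and that in NT-eSLCs without any 1 of I2, I9, N2, P1, P4, SC P5 and SC P10. The number called lower in PA-eSLCs was 1 without P1, P4, SC P5 or SC P10. Both IVP lines were on slide 1 and both PA lines on slide 2, and with the slide as a block the number called higher in PA-eSLCs was 6.

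**Figure D4:**
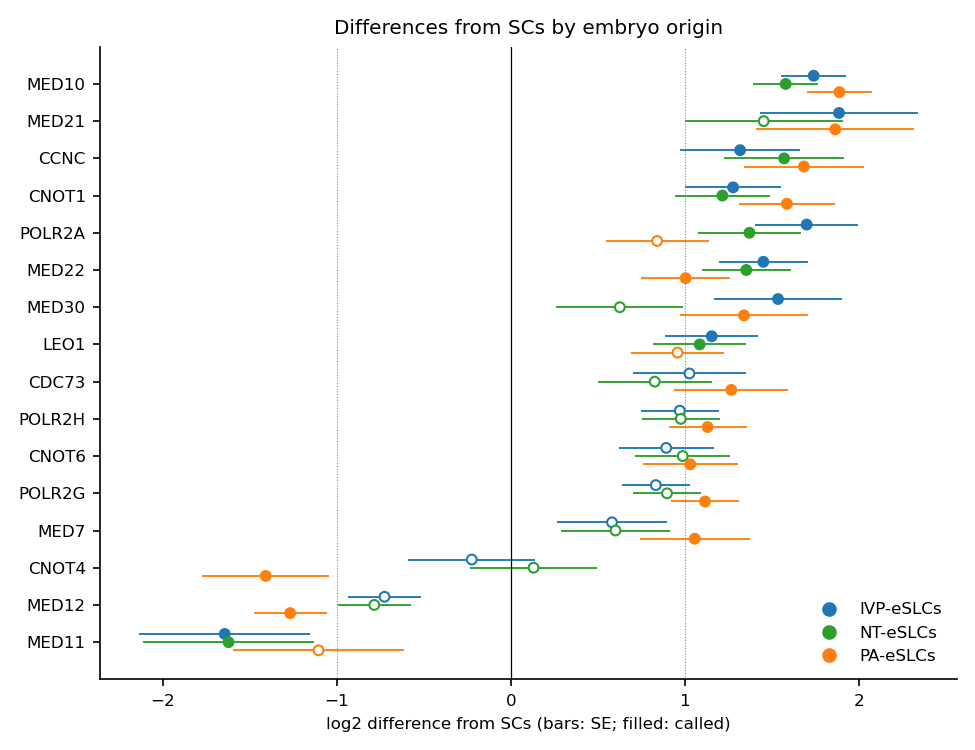
Log2 difference from SCs (horizontal axis) for the 16 members called in at least 1 origin, with bars for the SE of the fit and filled points where the gene was called. MED10 differs by 1.58 to 1.89 in all 3 origins, while the points of POLR2A, MED30 and CNOT4 lie furthest apart.

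MED10 showed the smallest adjusted p in each origin, with differences of 1.74 in IVP-, 1.58 in NT- and 1.89 in PA-eSLCs (SE 0.19 in each). CNOT1 differed by 1.28, 1.22 and 1.59 (SE 0.27), and CCNC by 1.32, 1.57 and 1.68 (SE 0.34). POLR2A gave 1.70 in IVP-eSLCs, 1.37 in NT-eSLCs and 0.84 in PA-eSLCs (SE 0.30), where it was not called. MED30 gave 1.54, 0.63 and 1.34 (SE 0.37), where N7 was the lower of the NT lines. CNOT4 was called lower in PA-eSLCs at -1.41 ± 0.36 (SE, adjusted p = 0.0258), a value in which P1 stood at the floor, and gave -0.22 and 0.13 in IVP- and NT-eSLCs. MED12 was called lower in PA-eSLCs at -1.27 ± 0.21 (SE, adjusted p = 0.00547), and gave -0.73 and -0.78 in the other origins.

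Compared directly, no member was called between origins by limma, and none by the methods' t-test at 2-fold and an unadjusted p under 0.05. Between NT- and IVP-eSLCs 0 members were called, and 0% of all genes were. The differences of the members ran from -0.91 to 0.37, and MED30 alone had an unadjusted p under 0.05 (1 of 51, beside 2.79% of all genes), at -0.91 ± 0.37 (SE). Between PA- and IVP-eSLCs 0 members and 0% of all genes were called as well. An unadjusted p under 0.05 was found for CNOT4 at -1.18 ± 0.36 (SE), POLR2A at -0.86 ± 0.30 (SE) and MED12 at -0.54 ± 0.21 (SE), which is 3 of 51 members beside 5.18% of all genes. Their adjusted p was 0.851. The lower values of these genes in PA-eSLCs therefore failed the correction for all genes, and slide and origin coincide for that pair.

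Passage was compared across the lines I2, N2 and P4 at passage 35 or 36 and I9, N7 and P1 at passage 30 or 31, with the origin as a block. Each line was measured at a single passage, so passage cannot be told apart from the line. Of the members, 0 were called and 0 had an unadjusted p under 0.05, where 0% and 0.654% of all 10555 genes did. The differences ran from -0.38 for POLR2A to 0.48 for MED4. The eSLC lines varied little for these genes: the SD over the 6 arrays had a median of 0.26 among the members and 0.35 among all genes tested. MED31 was the most even member (SD 0.07), and CNOT4 the least (SD 0.80).

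Line by line, the median member lay 0.39 to 0.66 above SCs, with I9 the lowest and P4 the highest, whereas the median of all genes lay 0.13 to 0.27 above. Within Mediator the medians by line ran from 0.21 in N2 to 0.63 in P4. In the PAF1 complex they ran from 0.03 in I9 to 0.84 in N7, and only 3 of its 5 genes were above the SC mean in I9 and in N2 while all 5 were in the other lines.

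Related gene groups outside the naming rule are given by their counts. Against SCs, 19.7% of all genes were called higher and 15.7% lower. Of 30 general transcription factors tested, 7 were called higher and 1 lower, with a median difference of 0.43. Among those called, the 3 largest rises were those of TAF5, a core TFIID subunit, at 1.53 ± 0.32 (SE, adjusted p = 0.0102), of CCNH, cyclin H of TFIIH, at 1.36 ± 0.21 (SE, adjusted p = 0.00339), and of GTF2H1, another TFIIH subunit, at 1.22 ± 0.15 (SE, adjusted p = 0.00141). TAF2 of TFIID was lower by -1.08 ± 0.20 (SE, adjusted p = 0.00688).

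Of 27 pausing and elongation factors, 4 were called higher and 1 lower, and the median was 0.03, below that of all genes. EAF2, a partner of the ELL elongation factors, was at the floor and not well above background in both SC arrays and at 124 to 607 in eSLCs, a difference of at least 4.38 (adjusted p = 0.00295). ELL was higher by 1.35 ± 0.25 (SE, adjusted p = 0.00722) and CCNT1, cyclin T1 of the pause release kinase, by 1.20 ± 0.37 (SE, adjusted p = 0.0385). Its kinase CDK9 showed -0.03 ± 0.16 (SE, adjusted p = 0.904). TCEA2 was the one called lower, at -1.09 ± 0.25 (SE, adjusted p = 0.0141).

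Of 20 other deadenylation and decay factors, 3 were called higher (PABPC1, PABPC4 and PATL1, by 1.01 to 1.18) and 1 lower. The latter was BTG3, an antiproliferative protein that binds the CNOT7 and CNOT8 deadenylases, at -1.91 ± 0.29 (SE, adjusted p = 0.00332). Of 18 subunits of RNA polymerases I and III, 3 were called higher, with POLR1G the most at 1.75 ± 0.28 (SE, adjusted p = 0.00382), then CRCP and POLR1D, and 1 lower, POLR3GL at -1.89 ± 0.24 (SE, adjusted p = 0.00149). Its paralog POLR3G, the form known from embryonic stem cells, gave -0.38 ± 0.48 (SE, adjusted p = 0.540).

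**Figure D5:**
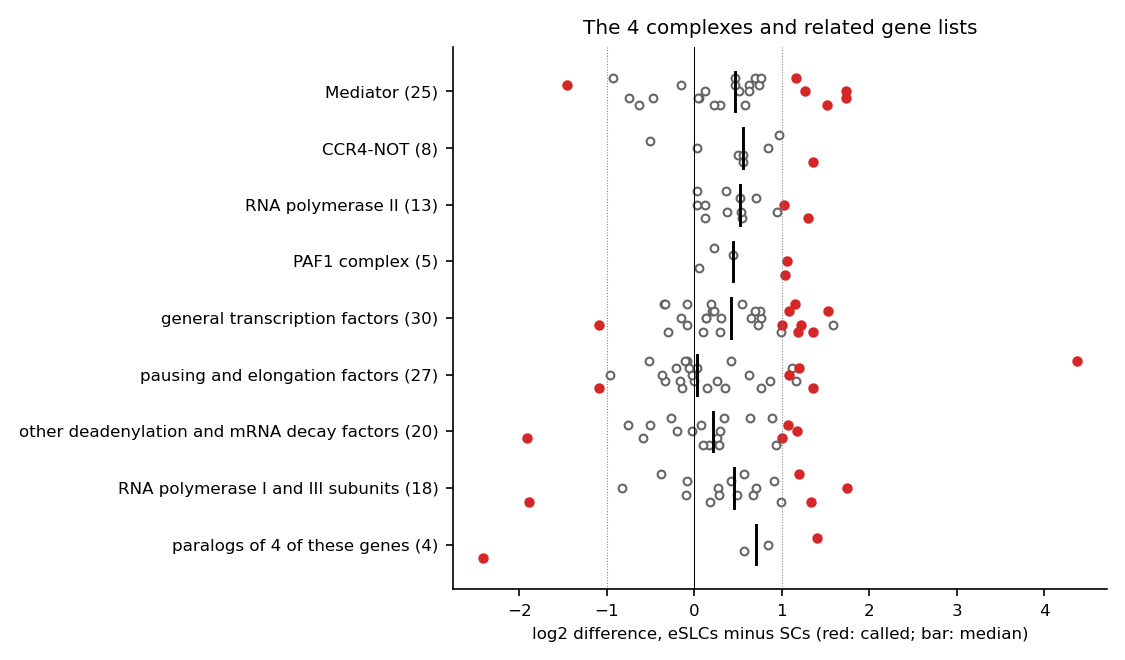
Log2 difference between eSLCs and SCs (horizontal axis) for every gene tested in the 4 complexes and in the related lists, with the number of genes in parentheses, called genes in red, medians as black bars and dotted lines at 2-fold. The medians of the 4 complexes lie between 0.44 and 0.56, close to those of the general transcription factors (0.43) and of RNA polymerases I and III (0.46), and EAF2 lies far to the right at 4.38.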

How the data were processed

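Per the labels, 8 samples were hybridized with 1 dye on Agilent bovine arrays. The authors scanned the arrays with Feature Extraction 11.5.1.1 and analysed them with GeneSpring GX 7.3, as named in the submitters' processing notes. They deposited the scanner output, with intensity values that carry no normalization between arrays, and a matrix of processed intensity values whose normalization the sources used here do not describe. That matrix entered only as an alternative. Its column medians were 119 to 501. It follows the background-subtracted signal (Spearman 0.96 to 0.98), is on a linear scale and was not centred by gene.

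The background-subtracted signal was used. The deposited processed signal correlated with it at Spearman 0.16 to 0.22 in 6 of the 8 files (0.97 in I2 and N2) and is an alternative. Control and outlier spots (1 to 11 per array) were left out of 45220, spots of 1 probe were averaged (43653 probes), and each array was scaled to a 75th percentile of 1000. Values under 13.3 were set to that floor before log2. Signal over background was 75.3 to 136 (75th percentile over the dimmest spot flagged well above background), 71.2% to 76.7% of spots carried that flag and 0 were saturated. The number of arrays limits the precision. RefSeq accessions named 26743 probes and 12603 genes. The brightest probe stood for a gene. The 51 members had 107 probes, and of 29 members with several probes present on all arrays, 7 had probes of either sign. In 0 of them was 1 probe at least 2-fold lower and another at least 2-fold higher. Probes could still lie over 2-fold apart, as in CNOT9 (-0.62 to 0.85) and MED12 (-0.93 to 0.13).

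limma 3.58.1 in R 4.3.3 (lmFit, eBayes) fitted a mean per condition over all 8 arrays. A gene entered the test (10958 did) if all arrays of some condition flagged it well above background. Regrouping 2 arrays against 2 cannot give a small p for 1 gene, and limma's p-values rest on a spread shared across genes. The fit was tested on simulated data. Alternatives changed the scaling, background, signal, floor, filter, probe rule, samples, slide and test, and left out each array. normexp used the median signal, since the files hold no mean signal. Values in every array are given for up to 4 members called in each direction per complex, those the study lists for stem cell maintenance, and the kinase and deadenylase members. Of the related lists, up to 3 genes called in each direction are named. MED12, POLR2G and the other members given with values were added after values were seen, as were CDK9 and POLR3G. The members, complexes and lists were chosen with earlier results of these data known. Figures were drawn with matplotlib 3.10.9 in Python 3.11.15.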

Additional observations from a re-analysis of the deposited data

Results flagged for a closer look

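MED21 was marked because the NT line N7, at a signal of 4710, was the lowest of the 6 eSLC arrays by a gap of 0.659 of their whole range, and MED30 because N7, at 1150, was lowest by a gap of 0.696. Of 51 groups of 6 arrays examined, these 2 were marked, and both times for N7. Chance marks about 1 in 20 such groups.

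CNOT2 was marked because both NT arrays lay above the SC mean and both PA arrays below it, with a difference between the origins of -0.40 (PA minus NT, log2). POLR2K was marked for NT arrays below the SC mean with IVP arrays above it, a difference of -0.52 (NT minus IVP), and with PA arrays above it, a difference of 0.48 (PA minus NT). These differences between origins were not tested beyond the fits given above, in which neither gene was called.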

How the results depend on the processing

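The number of members called higher in eSLCs than in SCs was 8 to 10, against 10 as reported, under median scaling, quantile normalization, normexp, other floors and filters, the mean of the probes, the fit of only the conditions compared, the slide as a block and the methods' t-test. It was 10 on slide 1 and 9 on slide 2 by 2-fold without a test. The other signals gave fewer calls. With the processed signal 0 were called higher and 0 lower against SCs for all eSLCs and for each origin, and 4 members were called higher at passage 35 or 36. With the authors' processed values the numbers higher were 1 for all eSLCs, 0 for IVP, 0 for NT and 1 for PA, and 0 were lower for IVP and 0 for PA. With the SC arrays as 1 sample the numbers higher were 4, 1, 1 and 3 for all eSLCs, IVP, NT and PA, and the numbers lower were 0, 0, 0 and 1. By the methods' t-test after Benjamini-Hochberg the numbers higher were 1, 0 and 4 for IVP, NT and PA, and 0 were lower in each, and at its unadjusted p 0 were lower for NT. A floor 4 times as high or no filter left 0 lower for all eSLCs, IVP and NT, and only the conditions compared left 0 lower for NT. For PA, normexp, the higher floor and the mean of the probes each left 1 lower, and the slide as a block left 6 higher. By 2-fold without a test, 2 were lower on slide 2 for all eSLCs and 2 for NT, 12 were higher on slide 1 for NT, and 1 member, CNOT4, was lower in PA- than in IVP-eSLCs. The cause of these shifts was not tested. In a comparison added after seeing the data, the authors' processed values lay over 2-fold from the background-subtracted signal on at least 1 array for 36% of 27500 probes well above background on all arrays, and for 41 of the 51 probes used for the members. As deposited, they put both arrays of every condition within 0.1 (log2) of each other for 18 of these 51 probes, beside 2.7% of the 27500, whereas the scaled background-subtracted signal did so for 0 of the 51. For these members the alternative therefore tests another set of values rather than another scaling.

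When 1 array was left out, the number called higher ran from 3 to 10 for all eSLCs, 1 to 8 for IVP, 1 to 7 for NT and 4 to 10 for PA, and the number called lower from 0 to 1, 0 to 1, 0 to 1 and 1 to 3. With the processed signal the difference of CNOT8 was -0.52 and that of MED12 was 0.28, both reversed. Both reversals come from this column, which hardly follows the background-subtracted signal in 6 files. Why it departs from that signal was not tested. The other 15 of the 17 members recomputed under every alternative kept their direction. Within a slide, CTR9 (-0.05 on slide 2), POLR2E (-0.09 on slide 2) and POLR2K (-0.11 on slide 1) were on the other side of 0, and MED4 was at about 0 on slide 1. The median of all genes moved from 0.23 to 0.12 under quantile normalization, and that of the members from 0.51 to 0.43. Over all alternatives the members' median was 0.24 to 0.70, and 34 to 44 of the 51 differences were positive. No paired analysis was possible because the labels number every sample as replicate 1, so that the replicate numbers used here, given in accession order, pair no samples.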
